A study of Mus musculus with 6 samples.

Results

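Small nucleolar RNAs (snoRNAs) and small Cajal body RNAs (scaRNAs) were measured in mammary epithelial cells sorted from *Glis2*+/+ (WT) and *Glis2*-/- (KO) mice. The genes were taken by name: a mouse symbol that begins with Snora, Snord or Scarna and goes on with a digit. They were then selected on their deposited counts, and a gene was kept with at least 10 counts in at least 3 of the 6 libraries. Of 54418 genes in the count table, 136 carried such a name and 38 of these were kept, namely 19 of 41 Snora genes, 12 of 86 Snord genes and 7 of 9 Scarna genes. Another 1279 genes of the table are annotated as snoRNA or scaRNA under other names, and 65 of them reached the same counts. The mice were 4-week-old C57BL/6 females, 3 per genotype with 1 library each, and the mutant carried a germline knockout of *Glis2*, which encodes a zinc finger transcription factor. Every cell of the mutant, in the gland and elsewhere, therefore lacked the intact gene. Epithelial cells were obtained by FACS after staining for TER-119, CD31, CD45, CD24 and CD49f. Libraries were made from total RNA with random priming, depletion of ribosomal RNA fragments and strand information, so RNAs without a poly(A) tail were not lost by design.

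snoRNAs are short, stable nuclear RNAs that guide chemical modification of other RNAs. Box C/D RNAs, named Snord, direct 2'-O-methylation by fibrillarin, and box H/ACA RNAs, named Snora, direct pseudouridylation by dyskerin. Most of them act on ribosomal RNA in the nucleolus, and a few are needed for cleavage of its precursor. scaRNAs carry the same boxes, reside in Cajal bodies and guide modification of the spliceosomal RNAs. In mammals most of these RNAs are cut out of introns of protein-coding or noncoding host genes, whereas a few are transcribed from genes of their own.

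The RNAs that the values below turn on are shown 5′ to 3′ as DNA letters of the GRCm38 annotation (GENCODE M21). Capitals mark TGATGA (box C) within the first 25 bases, CTGA (box D) within the last 12, or ACA placed 3 bases before the 3′ end. The first 5 are scaRNAs, the class that held the largest share of counts.
Scarna2, last 150 of 414 bases, chr3:108554338-108554487, minus strand: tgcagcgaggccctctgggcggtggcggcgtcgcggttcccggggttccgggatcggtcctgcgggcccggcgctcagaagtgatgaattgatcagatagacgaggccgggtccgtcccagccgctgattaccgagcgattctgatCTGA
Scarna10, last 150 of 325 bases, chr6:125186359-125186508, minus strand: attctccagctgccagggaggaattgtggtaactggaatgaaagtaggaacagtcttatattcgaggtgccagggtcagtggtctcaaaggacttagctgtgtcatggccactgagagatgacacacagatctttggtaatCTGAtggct
Scarna13, chr12:105031075-105031349, minus strand: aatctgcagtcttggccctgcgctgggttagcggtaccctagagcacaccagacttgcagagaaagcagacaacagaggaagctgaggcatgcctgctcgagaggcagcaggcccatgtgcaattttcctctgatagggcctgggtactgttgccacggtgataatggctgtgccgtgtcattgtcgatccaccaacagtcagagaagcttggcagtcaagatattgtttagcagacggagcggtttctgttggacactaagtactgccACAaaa
Scarna6, chr1:87784556-87784820, plus strand: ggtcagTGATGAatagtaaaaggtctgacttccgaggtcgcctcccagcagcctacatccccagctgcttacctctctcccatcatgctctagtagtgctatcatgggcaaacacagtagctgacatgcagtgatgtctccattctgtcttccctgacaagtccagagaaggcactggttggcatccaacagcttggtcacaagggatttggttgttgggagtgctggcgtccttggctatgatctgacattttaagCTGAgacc
Scarna9, chr9:15326264-15326333, minus strand: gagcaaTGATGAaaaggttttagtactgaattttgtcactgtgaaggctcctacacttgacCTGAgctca
The box C/D RNAs chosen next are both U15 RNAs of *Rps3*, which had high levels.
Snord15a, chr7:99482785-99482932, minus strand: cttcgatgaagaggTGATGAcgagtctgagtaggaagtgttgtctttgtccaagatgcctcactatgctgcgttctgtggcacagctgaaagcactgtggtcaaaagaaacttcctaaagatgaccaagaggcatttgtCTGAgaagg
Snord15b, chr7:99479563-99479707, minus strand: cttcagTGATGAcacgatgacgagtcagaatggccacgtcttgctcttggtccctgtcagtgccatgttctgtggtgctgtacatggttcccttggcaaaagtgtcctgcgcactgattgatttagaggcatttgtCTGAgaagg
The box H/ACA RNAs are the most abundant member and the 1 with the largest fitted difference, whose annotated end lacks the ACA at that distance.
Snora23, chr7:110046364-110046547, plus strand: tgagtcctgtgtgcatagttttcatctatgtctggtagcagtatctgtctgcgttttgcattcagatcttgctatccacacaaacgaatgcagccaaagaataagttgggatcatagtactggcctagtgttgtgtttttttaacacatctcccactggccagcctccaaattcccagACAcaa
Snora47, chr13:95330600-95330737, plus strand: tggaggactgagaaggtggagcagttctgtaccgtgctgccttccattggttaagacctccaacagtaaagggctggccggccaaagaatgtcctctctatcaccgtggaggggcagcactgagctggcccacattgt

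The letters went with the names. ACA at 3 bases from the end was present in 14 of the 19 kept Snora genes, in 0 of the 12 Snord genes and in 1 of the 7 Scarna genes, *Scarna13*. CTGA near the 3′ end was present in 11 of 12 Snord genes, in 5 of 7 Scarna genes and in 1 of 19 Snora genes, and TGATGA near the 5′ end in 7 of 12, 4 of 7 and 0 of 19. Among 4033 other short RNAs of like length (snRNA, miRNA and miscellaneous RNA) 2.28% ended with ACA at that distance, 3.595% held CTGA and 0.273% held TGATGA in the same windows. The sense strand alone was searched, the place of ACA lies inside the window of CTGA, and a match describes the letters only.

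Length went with detection. Of the 76 genes under 100 bases, 6 were kept (7.89%), and of the 60 genes of 100 bases or more, 32 were kept (53.3%). The kept Snord genes had a median length of 109 bases (70 to 238) and the dropped ones of 78 bases (64 to 111). All 41 Snora genes were longer than 100 bases, and 46.3% of them were kept. The 4 Scarna genes with most counts are annotated with 414 (*Scarna2*), 325 (*Scarna10*), 275 (*Scarna13*) and 265 bases (*Scarna6*). The libraries were read as pairs of 40 nucleotides after fragmentation and clean-up. How much of the low count of short RNAs came from their loss in the preparation was not tested.

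**Figure D1:**
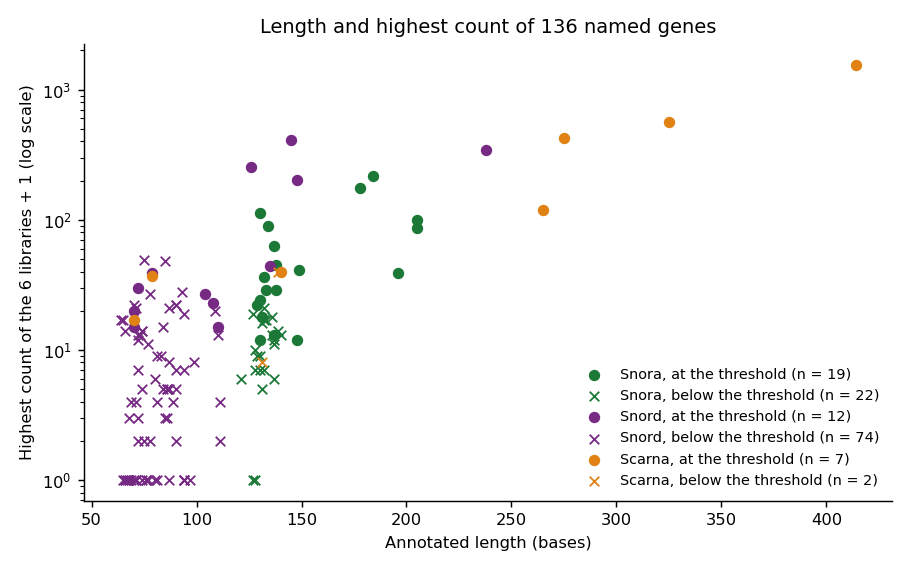
Annotated length in bases (x axis) against the highest count of the 6 libraries plus 1 (y axis, log scale) for all 136 named genes. Circles are the 38 genes kept and crosses the 98 dropped, coloured by name class, and the points at the bottom include 26 genes with 0 counts in all libraries.

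Of the 98 genes dropped, 64 had under 10 counts in every library. The 4 members just inside the threshold had a third-highest count of 10. These were *Snora57*, with 10, 10 and 11 counts in WT and 5, 0 and 3 in KO, *Snora24*, with 11, 11 and 7 and then 10, 6 and 4, *Snora15*, with 17, 10 and 4 and then 10, 9 and 17, and *Snora16a*, with 10, 0 and 9 and then 11, 12 and 9. The 3 genes just outside it had a third-highest count of 9. These were *Snord71*, with 5, 9 and 0 counts in WT and 47, 6 and 9 in KO, *Snord83b*, with 18, 3 and 9 and then 13, 9 and 4, and *Snora41*, with 7, 12 and 3 and then 16, 9 and 7. Single libraries could thus hold many counts of a dropped gene. Of the 38 members, 18 had 10 counts in all 6 libraries. Another 5 reached 10 counts in all 3 KO but fewer WT libraries (*Scarna9*, *Scarna17*, *Snora9*, *Snora47* and *Snord13*) and 5 in all 3 WT but fewer KO libraries (*Snora30*, *Snora57*, *Snord43*, *Snord55* and *Snord82*). The rule itself favours a difference in these members, most of all in *Snora57*, which passed through WT alone.

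Total counts lay between 24996524 and 31393917 per library. The 38 members had between 2623 and 4698 counts per library. They made up 0.00889% to 0.0110% of the WT libraries and 0.0141% to 0.0150% of the KO libraries, without overlap. Epithelial markers (*Epcam*, *Krt8*, *Krt18*, *Krt5*, *Krt14*, *Cdh1*) summed to between 3482 and 5747 CPM (counts scaled to library size) in WT and between 3746 and 5613 in KO, none was at 0, and 0 of 6 had an unadjusted p under 0.05. Fibroblast markers were also present, with sums of 1201 to 3747 CPM in WT and 1292 to 2913 in KO. *Glis2* had 21.7, 23.2 and 19.6 CPM in WT and 10.1, 16.99 and 16.3 in KO (log2 fold change -0.57, SE 0.22, adjusted p = 0.906 with edgeR's quasi-likelihood test). A count over the whole gene does not show which part of its transcript remained.

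Levels of the members differed widely. The 3 classes took unequal shares of the 21168 member counts, 47.5% for Scarna, 29.9% for Snord and 22.6% for Snora. *Scarna2* alone took 26.9% of all member counts. Compared per length, as mean CPM per kilobase of annotated RNA over the 6 libraries, *Scarna2* was at 78.9, *Snord15b* at 70.5, *Snord22* at 61.8, *Snord15a* at 39.3, *Snord17* at 38.4, *Scarna10* at 37.4, *Snora23* at 33.6 and *Scarna13* at 32.2. These means pool both genotypes. In WT alone *Snord15b* (59.5) and *Snord22* (54.2) lay above *Scarna2* (52.5), and in KO *Scarna2* (105.2) lay above *Snord15b* (81.5) and *Snord22* (69.3). The lowest member over the 6 libraries was *Snora57* at 1.57.

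The deposited TPM values gave another order. *Snord15b* had a mean of 84.3 TPM, *Snord22* of 78.3, *Snord15a* of 46.1, *Snora23* of 31.7 and *Scarna2* of 30.2. These means also pool both genotypes, so the order of close values such as the last pair can differ between them. TPM divides by an effective length, the number of positions at which a fragment can start, and not by the annotated length. Set against 373 single-transcript genes of 3000 to 10000 bases, the lengths implied by counts and TPM were 17.8% to 27.5% of the annotated length for Snora genes, 17.8% to 32.9% for Snord genes and 18.6% to 57.0% for Scarna genes. A count of a short snoRNA therefore weighed more in TPM than a count of *Scarna2*, for which the share was 57.0%.

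Some counts could not be assigned to 1 gene by sequence. For 16 members no stretch of 31 bases, the length that Salmon matches by default, occurred in a transcript of another gene, among them *Scarna2*, *Scarna6*, *Scarna9*, *Snora23*, *Snora47*, *Snord13*, *Snord15a* and *Snord17*. For 9 members every stretch also lay in a transcript of another gene, among them the host, namely *Snora16a*, *Snora24*, *Snora44*, *Snora64*, *Snora74a*, *Snora81*, *Snora9*, *Snord15b* and *Snord22*. *Scarna10* shared 85.8% of its stretches with *Ncapd2*, for which a transcript with a retained intron is annotated there, and with *Gm28967*. *Snora73a* and *Snora73b*, copies of the U17 RNA needed for cleavage of the 18S precursor, shared stretches with each other and with *Snhg3*, and lie antisense to *Gm17300*. *Snora16a* is annotated under 2 overlapping identifiers. The one kept had 10, 0 and 9 counts in WT and 11, 12 and 9 in KO, the dropped one had 0, 6 and 12 and then 4, 17 and 4, and their sums were 10, 6 and 21 in WT and 15, 29 and 13 in KO. Values of members with shared stretches are uncertain as to the source of the reads.

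The comparison of KO with WT asked which genes differed in mammary epithelial cells without *Glis2*. edgeR's quasi-likelihood test, run on the counts of 21236 genes that passed its filter, included 37 of the 38 members, all but *Snora57*. A call required an adjusted p no larger than 0.05 together with a log2 fold change of 0.58 or more in size. By edgeR 0 of 37 members were called, beside 0% of all genes tested (0 of 21236). With DESeq2 and apeglm shrinkage at the same thresholds, 1 of 38 members was called, *Scarna2*, which was higher in KO, beside 0.152% of 23738 genes called higher. At an unadjusted p under 0.05 in edgeR, 4 members were higher in KO, beside 2.99% of all genes, and 0 were lower, beside 2.33%. These were *Scarna2*, *Scarna13*, *Scarna10* and *Snora47*. The number higher was 2 without WT replicate 3 and 2 without KO replicate 3. The log2 fold change was above 0 for 29 of 37 members, against 51.6% of all genes, and its median was 0.35, against 0.01 over all genes. All 3 KO libraries lay above all 3 WT libraries for 9 of 37 members, against 6.23% of all genes, and below them for 1 member, against 5.5%. Of these, *Snora47*, *Snora9*, *Snord13* and, in the lower direction, *Snord82* were kept through the 3 libraries of the higher genotype, so the counts are not independent of the rule.

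The summed level of the scaRNA genes was 44.2, 44.4 and 32.8 CPM in WT and 62.4, 81.6 and 82.1 in KO. The groups did not overlap, and the mean was 1.86-fold higher in KO (40.5 ± 6.63 and 75.4 ± 11.2 CPM, SD, n = 3 each). Without *Scarna2* the sum was still without overlap, at 18.7 ± 1.54 in WT and 31.8 ± 4.33 in KO. The sum of Snora members was 19.4, 26.1 and 29.1 CPM in WT and 33.2, 28.8 and 31.2 in KO, and that of Snord members was 23.7, 40.0 and 38.8 in WT and 48.2, 36.4 and 36.8 in KO. In both of these classes the genotypes overlapped. Without its most abundant member the Snora sum did not overlap, at 14.6 to 21.5 CPM in WT and 23.3 to 25.98 in KO, whereas the Snord sum still did. As a ratio of means, KO exceeded WT by 1.25-fold for Snora and 1.19-fold for Snord genes. The log2 ratio of the Snora sums, 0.32, was 0.17 without WT replicate 1, and that of the Snord sums, 0.25, was 0.04 without WT replicate 1 and 0.10 without KO replicate 1. In cell populations of this kind, more cells of a type with high levels and more of an RNA per cell cannot be told apart.

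**Figure D2:**
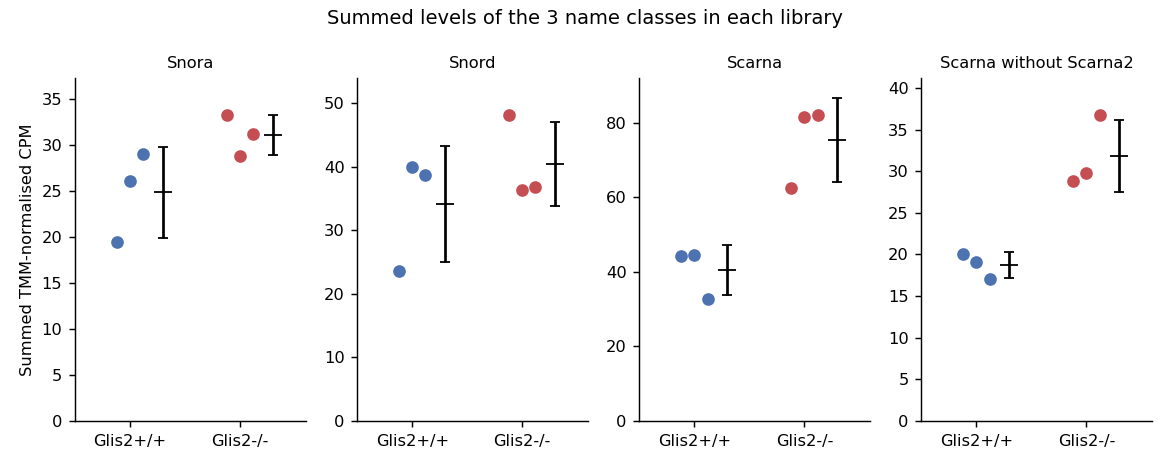
Summed TMM-normalised CPM (y axis, from 0) of the Snora, Snord and Scarna members and of the Scarna members without *Scarna2*, in the 3 *Glis2*+/+ (blue) and 3 *Glis2*-/- (red) libraries. Points are libraries and black bars the mean ± SD, and both Scarna panels show no overlap between genotypes.

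*Scarna2*, which guides methylation of U2 spliceosomal RNA, lies outside any annotated gene of its strand and was the most abundant member. It was at 24.1, 25.3 and 15.8 CPM in WT and at 33.6, 51.7 and 45.3 CPM in KO. Every KO library was thus above every WT library. The log2 fold change was 1.00 (SE 0.22). The adjusted p was 0.856 in edgeR and ranged from 0.0229, in DESeq2, to 1.0 over the 13 alternatives. edgeR without a filter on low counts also called it, and how many of the 37115 genes of that fit were called is not given here. With 1 library left out, the log2 fold change lay between 0.82 and 1.15 and the unadjusted edgeR p between 0.00129 and 0.00892.

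*Scarna13*, an H/ACA-type scaRNA with pseudouridylation sites in spliceosomal RNA, was at 9.04, 3.85 and 3.99 CPM in WT and 9.55, 13.0 and 13.6 in KO. The groups were separated by little, since WT replicate 1 lay near KO replicate 1. Its log2 fold change was 1.10 (SE 0.36, adjusted p = 0.906, edgeR) and became 1.605 without WT replicate 1. The unadjusted p was 0.0157, and 0.0563 without WT replicate 3. *Scarna10*, known as U85 and active on U5 RNA, ends with the CTGA letters shown above and was at 7.03, 11.2 and 9.52 CPM in WT and 14.9, 12.2 and 18.1 in KO. Its log2 fold change was 0.70 (SE 0.25, adjusted p = 0.906, edgeR), and the unadjusted p was 0.0208, 0.0792 without WT replicate 1 and 0.0874 without KO replicate 3. Its host *Ncapd2*, a condensin subunit with which it shares sequence, was at 102 ± 28.2 CPM in WT and 80.4 ± 9.03 in KO (SD, n = 3).

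The other 4 scaRNA genes overlapped between genotypes in CPM, *Scarna9* by the narrowest margin. *Scarna6*, known as U88 and also a guide for U5 RNA, was at 2.30, 2.14 and 2.53 CPM in WT and 2.08, 2.60 and 3.74 in KO. *Scarna9*, a guide for U2 RNA of which the annotation holds 70 bases, had 11, 6 and 10 counts in WT and 14, 16 and 12 in KO. Its counts did not overlap, but in CPM the lowest KO library (0.3835) lay just under the highest WT library (0.3838). *Scarna17* had 36, 8 and 9 counts in WT and 21, 35 and 21 in KO, so that a single WT library was as high as KO. *Scarna3a* had 5, 39 and 7 counts in WT and 22, 11 and 8 in KO, with WT replicate 2 highest. Its log2 fold change of -0.26 (SE 0.99) became 1.201 without that library. The dropped *Scarna3b* had 39 counts in the same WT library and at most 6 in any other. The dropped *Scarna8* had at most 7.

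**Figure D3:**
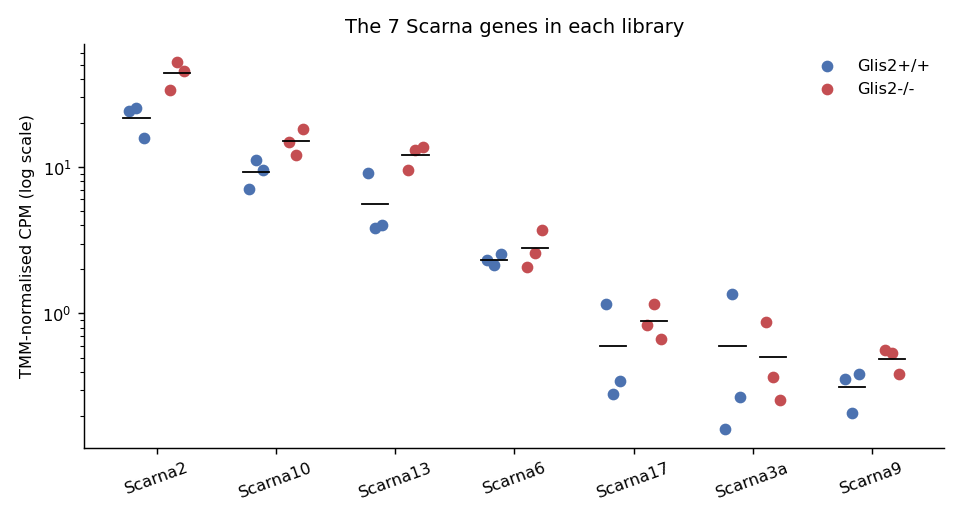
TMM-normalised CPM (y axis, log scale) of the 7 kept Scarna genes, ordered by mean level, in the 3 *Glis2*+/+ (blue) and 3 *Glis2*-/- (red) libraries, with the group mean as a line. *Scarna2*, *Scarna10* and *Scarna13* show no overlap between genotypes and the other 4 do.

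The Snora members most often lay above 0 in the fit, but with wide errors. Of 18 tested, 15 had a log2 fold change above 0, with a median of 0.53 and standard errors from 0.31 to 1.29. This median was 0.086 with log2 TPM in limma, and 0.14 for Snora genes with 50 counts in at least 3 libraries. The largest log2 fold change was that of *Snora47*, an intronic RNA of *Zbed3*, with 10, 4 and 1 counts in WT and 11, 44 and 22 in KO. In CPM this was 0.324, 0.140 and 0.0384 against 0.440, 1.47 and 0.703, and the groups did not overlap. Its log2 fold change was 2.33 (SE 0.95, adjusted p = 0.906, edgeR), 3.19 without WT replicate 1 and 1.73 without KO replicate 2. The unadjusted p was 0.0388, and it lay above 0.05 when WT replicate 2 or 3 or KO replicate 2 or 3 was left out (0.0704 to 0.193). *Zbed3* itself was at 28.6 ± 3.49 CPM in WT and 27.5 ± 3.00 in KO.

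Another 4 Snora genes were without overlap and higher in KO. *Snora64*, from *Rps2*, was at 1.52, 2.31 and 0.768 CPM in WT and 3.52, 2.37 and 2.72 in KO. *Snora21*, from the *Rpl23* intron, was at 1.07, 1.26 and 1.23 CPM in WT and 2.28, 1.502 and 1.98 in KO. *Snora62*, from the intron of *Rpsa*, was at 0.648, 0.700 and 0.652 CPM in WT and 0.879, 1.34 and 1.02 in KO. These 3 lie in genes of ribosomal proteins. *Snora9*, in an exon of *Snhg15*, was at 0.507 ± 0.219 CPM in WT and 0.887 ± 0.116 in KO (SD, n = 3). Fitted log2 fold changes of these 4 lay at 0.90, 0.69, 0.69 and 0.80, with adjusted p-values of at least 0.920 (edgeR).

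The 4 Snora genes with the highest mean CPM had log2 fold changes between 0.00 and 0.15. Those next in level, *Snora64*, *Snora73b* and *Snora21*, were at 0.90, 0.83 and 0.69. *Snora23*, from the *Ipo7* intron, was at 4.83, 4.62 and 8.29 CPM in WT and 7.27, 5.51 and 6.61 in KO (log2 fold change 0.13, SE 0.31). *Snora81*, from *Eif4a2*, was at 2.63, 6.09 and 6.22 CPM in WT and 6.43, 3.77 and 4.73 in KO (log2 fold change 0.00, SE 0.39). In both genes the genotypes overlapped. *Snora31*, from the *Tpt1* intron, was at 2.66 ± 0.489 CPM in WT and 2.95 ± 0.696 in KO. Of the U17 copies, *Snora73a* was at 2.23 ± 0.468 CPM in WT and 2.40 ± 0.925 in KO, and *Snora73b* at 1.47 ± 1.00 and 2.61 ± 0.550, where WT replicate 1 was lowest at 0.421 CPM. *Snora17* had a log2 fold change of 1.10 (SE 0.91), and its KO counts of 6, 15 and 35 spread over a wider range than its WT counts of 7, 4 and 13. *Snora44*, in an exon of *Snhg12*, had 11, 2 and 9 counts in WT and 15, 7 and 21 in KO (log2 fold change 0.95, SE 0.91).

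Snora genes below 0 were few. *Snora24*, in an exon of *Snhg8*, had a log2 fold change of -0.48 (SE 0.85), *Snora30* of -0.18 (SE 0.84) and *Snora74a* of -0.02 (SE 1.29). In *Snora30* the KO counts were 3, 12 and 23, around the WT counts of 16, 13 and 12. *Snora74a* ranged from 4 to 33 counts in WT and from 0 to 38 in KO. *Snora57*, below the filter of the test, was at 0.365 ± 0.0508 CPM in WT and 0.0986 ± 0.0999 in KO, which the rule on its counts in WT helped to fix. Among the remaining members above 0, *Snora15* had a log2 fold change of 0.23 (SE 0.82), *Snora34* of 0.36 (SE 0.74) and *Snora16a* of 0.74 (SE 1.14), all with overlap.

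Of the 12 Snord members, 8 had a log2 fold change above 0 and 4 below, with a median of 0.14 that became -0.12 without WT replicate 1. *Snord15b*, which guides methylation of 28S ribosomal RNA, was at 5.38, 9.77 and 10.7 CPM in WT and 16.4, 9.45 and 9.62 in KO. Only KO replicate 1 stood above the WT range. *Snord15a*, from an intron of the same host, was at 4.31, 5.71 and 6.37 CPM in WT and 7.63, 4.41 and 6.45 in KO. Its high library was the same KO replicate 1, although no stretch of 31 bases is shared by the pair. *Snord17* was at 5.83, 12.04 and 8.60 CPM in WT and 9.67, 9.95 and 8.69 in KO. *Snord22*, or U22, needed for 18S processing, lies in an exon of *Snhg1* and was at 3.89, 7.98 and 8.63 CPM in WT and 10.1, 8.18 and 7.89 in KO. WT replicate 1 was the lowest library for these 4 RNAs. The log2 fold changes were 0.45 (SE 0.33), 0.17 (SE 0.30), 0.10 (SE 0.28) and 0.35 (SE 0.32) in this order.

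Box C/D RNAs with their own genes were *Snord118* and *Snord13*. *Snord118*, or U8, needed for processing of the large subunit RNAs, was at 0.583, 1.26 and 1.54 CPM in WT and 1.48, 1.44 and 1.02 in KO (log2 fold change 0.22, SE 0.56). *Snord13*, or U13, which acts on 18S ribosomal RNA, had 5, 12 and 11 counts in WT and 19, 26 and 24 in KO. It was the only Snord gene without overlap and higher, with a log2 fold change of 1.25 (SE 0.73, adjusted p = 0.929, edgeR). *Snord82*, from an intron of *Ncl*, was the only tested member without overlap and lower in CPM, at 0.444 ± 0.0186 in WT and 0.328 ± 0.0926 in KO, while its counts of 14, 13 and 11 in WT and 9, 12 and 7 in KO did overlap (log2 fold change -0.43, SE 0.75).

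The lowest fitted values of the class belonged to *Snord55*, with 38, 11 and 16 counts in WT and 4, 19 and 11 in KO (log2 fold change -0.95, SE 0.83), and *Snord43*, with 11, 11 and 22 counts in WT and 11, 8 and 6 in KO (log2 fold change -0.81, SE 0.81). The annotation used types *Snord43* as a miRNA gene, and neither TGATGA nor CTGA was found in the windows searched. The host of *Snord43*, *Rpl3*, encodes a ribosomal protein. *Snord49a* had 25, 29 and 3 counts in WT and 14, 2 and 26 in KO. Each genotype held a library with 3 counts or fewer. *Snord34*, from *Rpl13a*, had 13, 3 and 4 counts in WT and 1, 19 and 12 in KO, and *Snord8*, a guide for U6 RNA within *Chd8*, had 7, 13 and 9 and then 14, 4 and 13. None of these 5 passed an unadjusted p of 0.05 in edgeR.

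**Figure D4:**
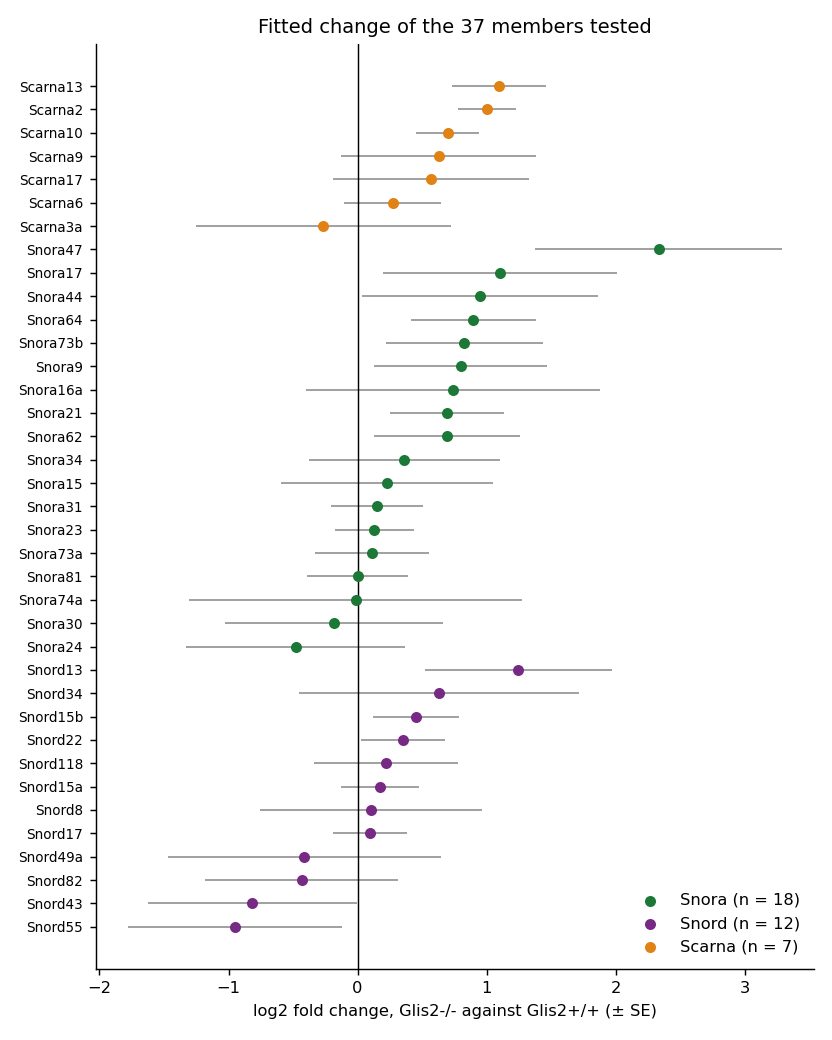
Fitted log2 fold change of *Glis2*-/- against *Glis2*+/+ (x axis, edgeR, bars ± SE) for the 37 members tested, ordered within each name class. Of them, 29 lie above 0, and the narrowest bar is that of *Scarna2* (SE 0.22).

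Members with more counts had smaller errors. Of the 16 members with a mean of at least 1 CPM over the 6 libraries, 16 had a log2 fold change above 0, with a median of 0.31 and a median SE of 0.36. Over all genes at that level 51.8% were above 0, with a median of 0.01. By class the medians of these members were 0.85 for Scarna, 0.15 for Snora and 0.22 for Snord. With log2 TPM in limma, *Snora23*, *Snora31*, *Snora73a*, *Snora81*, *Snord15a* and *Snord17* of this set lay below 0. The median over all genes was -0.13 in that fit. Of the 21 tested members below 1 CPM, 13 were above 0 and 8 below, with a median SE of 0.84. The smallest value in the first set was 0.00036 for *Snora81*, and the 12 Snora and Snord genes among them had no unadjusted p under 0.05. Among members with no shared stretch of 31 bases, 12 of 16 were above 0, and among the others 17 of 21. The 65 snoRNA and scaRNA genes with other names summed to 105 ± 11.2 CPM in WT and 133 ± 5.80 in KO without overlap, and 47 of 61 tested were above 0.

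Host genes showed no common direction. Of the 38 members, 32 lay within an annotated gene on their strand, 20 of them in introns only and 12 at least partly in an annotated exon of a host. The 31 hosts tested had log2 fold changes from -0.93 to 0.43 with a median of -0.02, and 18 were below 0 and 13 above. The only host with an unadjusted p under 0.05 was *Tpt1* (log2 fold change 0.27, SE 0.11, adjusted p = 0.906, edgeR). In 18 of 35 pairs of a member and a host the 2 fitted values had opposite signs. The ratio of member to host CPM, with 0.05 CPM added to each, was higher in all KO than in all WT libraries for 7 of 37 pairs and lower for 0. The share over other pairs of genes was not computed, so these counts are a description only.

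Those 7 pairs were *Scarna10* with *Ncapd2*, *Scarna6* with *Atg16l1*, *Snora21* with *Rpl23*, *Snora47* with *Zbed3*, *Snora62* with *Rpsa*, *Snora64* with *Rps2* and *Snora9* with *Snhg15*. *Rps2* was at 395 ± 43.6 CPM in WT and 394 ± 38.0 in KO, and *Rpsa* at 1153 ± 123 and 1168 ± 98.8. *Atg16l1*, an autophagy gene, was at 95.5 ± 7.31 CPM in WT and 79.0 ± 10.4 in KO, whereas the mean of its *Scarna6* was 2.32 ± 0.200 and 2.81 ± 0.849. For *Scarna13* the host *Snhg10* was too low to be tested (0.22 and 0.16 CPM on average). The ratios of both *Rps3* snoRNAs to their host overlapped between genotypes.

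**Figure D5:**
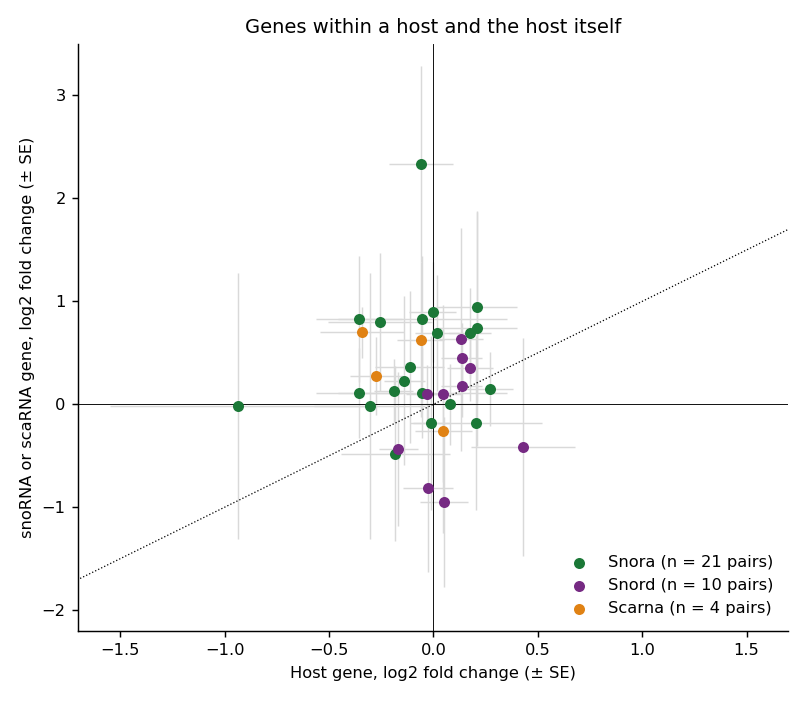
Log2 fold change of the host gene (x axis) against that of the snoRNA or scaRNA within it (y axis), *Glis2*-/- against *Glis2*+/+ from edgeR, for 35 pairs of which both were tested. Bars are ± SE, the dotted line marks equal values, and the hosts spread from -0.93 to 0.43 while *Snora47* reaches 2.33.

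Of the few listed genes for core proteins that bind these RNAs, more had values below 0 than above. Over all genes tested, 51.6% were above 0. Of the box C/D core (*Fbl*, *Nop56*, *Nop58*, *Snu13*) 3 of 4 had log2 fold changes below 0, and *Snu13* was at 0.16 (SE 0.14). *Nop56*, a scaffold of the box C/D particle, was at 103, 95.2 and 138 CPM in WT and 83.8, 86.9 and 94.1 in KO without overlap (log2 fold change -0.35, SE 0.15, adjusted p = 0.906, edgeR). Of all genes tested, 5.5% were lower in KO without overlap. The methyltransferase fibrillarin, *Fbl*, was at 73.0 ± 8.09 CPM in WT and 64.4 ± 5.73 in KO. Of the 6 box H/ACA and Cajal body genes (*Dkc1*, *Nhp2*, *Nop10*, *Gar1*, *Wrap53*, *Coil*) 4 were below 0 and 0 had an unadjusted p under 0.05. *Dkc1*, the pseudouridine synthase, had a log2 fold change of -0.20 (SE 0.15). *Wrap53*, which brings scaRNAs to Cajal bodies, was at 6.09 ± 0.555 CPM in WT and 7.76 ± 2.67 in KO, and coilin, *Coil*, at 9.23 ± 3.81 and 9.59 ± 0.863. Of 14 genes of assembly and processing, 7 were above and 7 below 0, between -0.21 and 0.17.

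Of the noncoding hosts listed, 18 of 20 were tested, 9 above and 9 below 0. *Gas5*, host of many box C/D RNAs, was at 101 ± 8.04 CPM in WT and 126 ± 12.5 in KO without overlap (log2 fold change 0.32, SE 0.11, adjusted p = 0.906, edgeR). In this list 3 genes were higher in KO without overlap (*Gas5*, *Snhg1* and *Snhg6*), against 6.23% of all genes. Lower without overlap was 1 gene, *Snhg15*, against 5.5%. Nuclear long noncoding RNAs had a median log2 fold change of 0.12 over 7, and *Malat1* was at 17663 ± 1509 CPM in WT and 17102 ± 1236 in KO. All 7 overlapped between genotypes.

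Other short structural RNAs also lay mostly above 0. Of the 9 listed, 8 were tested and 8 had a log2 fold change above 0, with a median of 0.62, against 51.6% and 0.01 over all genes, 5 were without overlap and higher, against 6.23% of all genes, and *Terc* was listed at 0 counts in all libraries. *Rn7sk*, which holds back the elongation factor P-TEFb, was at 1091, 1229 and 1011 CPM in WT and 1769, 2293 and 2597 in KO (log2 fold change 1.00, SE 0.14, adjusted p = 0.497 from edgeR and 2.105e-05 from DESeq2). *Rpph1*, the RNA of RNase P, was at 230 ± 8.64 CPM in WT and 403 ± 83.5 in KO (adjusted p = 0.849 from edgeR and 0.00456 from DESeq2). *Rmrp*, the RNA of RNase MRP, and *Rnu12*, the U12 RNA of the minor spliceosome, had log2 fold changes of 0.42 (SE 0.14) and 0.81 (SE 0.31). The sum of the list was 1334 to 1564 CPM in WT and 2210 to 3213 in KO. Its part in the scaRNA result was not tested.

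Leukocyte markers also moved with genotype. Of 6 markers 5 were above 0, and *Ptprc* and *Cd74* were without overlap and higher in KO. *Ptprc* encodes CD45, for which the cells were stained in the sort, and was at 9.56 ± 1.52 CPM in WT and 22.7 ± 13.9 in KO. *Pecam1* encodes CD31, also stained for, and was at 109.6 ± 59.0 CPM in WT and 133.6 ± 63.2 in KO with overlap. The gates set on these stains are not given in the sources used here. *Adgre1*, a macrophage marker, had a log2 fold change of -1.56 (SE 0.66) with overlap. Their summed level was 23.7 to 48.5 CPM in WT and 56.5 to 109.6 in KO, highest in KO replicate 3, and none was at 0. *Cd74*, the invariant chain of antigen presentation, was at 16.7 ± 7.32 CPM in WT and 39.4 ± 11.9 in KO (adjusted p = 0.906 from edgeR and 0.0383 from DESeq2). Without KO replicate 3 the log2 fold change of *Scarna2* was 0.96 (SE 0.26), that of *Scarna13* 0.99 (SE 0.42) and that of *Scarna10* 0.53 (SE 0.27). The leukocyte sums of the other KO libraries, 56.5 and 63.4 CPM, were also above those of WT, and the part of leukocytes in these values was not tested. Sums of the 3 endothelial markers were 94.1 to 532.3 CPM in WT and 152.0 to 554.5 in KO, of the 3 adipocyte markers 52.3 to 306.4 and 92.5 to 261.8, of the 3 skeletal muscle markers 3.68 to 33.7 and 6.63 to 10.1, and of the 2 red cell markers 1.89 to 6.81 and 3.84 to 12.7. Among these, the adipocyte gene *Plin1* (log2 fold change -1.37, SE 0.46) and the muscle gene *Myh4* (-1.87, SE 0.80) had an unadjusted p under 0.05, both with overlap. All 3 adipocyte and all 3 muscle markers had log2 fold changes below 0, and the adipocyte hormone gene *Adipoq*, at 1.85, 1.30 and 4.07 CPM in WT and 1.04, 0.0 and 0.575 in KO, was without overlap (-2.16, SE 1.07). Their part in the results was not tested.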

How the data were processed

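RNA-seq libraries of sorted mammary epithelial cells came from 3 *Glis2*+/+ and 3 *Glis2*-/- mice, 1 library each, so the spread is that between mice. The authors prepared them with the SMARTer Stranded Total RNA-Seq Pico kit from 1 ng of total RNA, estimated transcript abundance with Salmon 1.2.1 on mm10 with the genome as a decoy, and deposited estimated counts per gene, not normalized, and log2 values of TPM plus 1. No column was left unused, and depth is given as total counts. Estimated counts divide reads among overlapping transcripts, so a snoRNA and its host can exchange reads.

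Counts were rounded and compared with edgeR 4.0.16 in R 4.3.3 (filterByExpr, TMM, quasi-likelihood F test, Benjamini-Hochberg adjustment over 21236 genes). Calls were made at an adjusted p no larger than 0.05 with a log2 fold change of 0.58 or more in size. CPM are TMM-normalised. All 15 pairs of libraries differed beyond counting noise (chi-square over degrees of freedom 18.8 or more). Positions, types and sequences come from GENCODE M21 (GRCm38), matched by Ensembl identifier, an earlier release than the authors used. The fits were tested on simulated data, drawn from the spread that edgeR fitted. Such data cannot decide between edgeR and DESeq2 here.

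The members, lists and alternatives were chosen with earlier results of these data known. Genes named are, per class, the 5 most abundant members, up to 4 per direction with the smallest p, all Scarna genes, members next to the threshold, hosts of these, list members with a p under 0.05, 4 core particle genes, *Glis2* and any member called by edgeR or DESeq2. The remaining members were named so that each is accounted for, and other list genes were named after their values were seen. Alternatives were DESeq2 1.42.0 with apeglm 1.24.0, other scalings and filters, a replicate block, leaving out each library, log2 TPM in limma 3.58.1 (genes with at least 1 TPM in 3 libraries) and other count thresholds. DESeq2 medians before shrinkage and *Snora16a* counted once were added after seeing the data. Some items of the lists and hosts are not reported here.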

Additional observations from a re-analysis of the deposited data

How the results depend on the processing

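Members called numbered 0 in edgeR with other scalings, with a replicate block, without any 1 library and with 10 counts in every library (18 members left), and 0 in limma on log2 TPM, whereas DESeq2 with apeglm called 1 and edgeR without a low-count filter called 1. The number called over the 37115 genes of the unfiltered fit is not given here. Members higher at an unadjusted p under 0.05 numbered 4 in the fit reported and 2 to 4 without 1 library, and limma had 5 higher and 2 lower members. The share over the 11921 genes that limma tested is not given here, so its counts are a description only. Members without overlap and higher numbered 9, and 10 to 13 without 1 library. Those without overlap and lower numbered 1, and 1 to 4 without 1 library. Groups of fewer libraries separate more easily, and the shares over all genes for those splits are not given here. The median log2 fold changes of Snora, Snord and Scarna members (0.53, 0.14 and 0.63) were 0.0, 0.0 and 0.0 after apeglm shrinkage, which sets nearly all to 0. Before shrinkage, chosen after seeing the data, they were 0.35, 0.13 and 0.63. In limma the Snora median was 0.086 and the Snord median -0.038, beside -0.13 over all genes. With 50 counts in 3 libraries (14 members) they were 0.14 and 0.26. Without 1 library the Snord median ranged from -0.12 to 0.30. *Snora16a* counted once, also chosen after seeing the data, gave a Snora median of 0.46. The replicate numbers did not pair the mice (correlations of deviations -0.03, 0.29 and 0.06), and with the replicate block 3 members were higher at an unadjusted p under 0.05.

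Of the 38 members, 29 were followed over the alternatives, of which 16 kept their direction and 13 did not. Of those not followed, *Snora15* (-0.12 to 0.69), *Snora34* (-0.10 to 0.72) and *Snord8* (-0.31 to 0.49) also changed sign without 1 library. Under the replicate block *Scarna3a* was at 0.082. In limma *Snora23* was at -0.023, *Snora31* at -0.064, *Snora73a* at -0.13, *Snora81* at -0.12, *Snord15a* at -0.044 and *Snord17* at -0.032. *Snora81* was at -0.012 with DESeq2 size factors, -0.011 with scaling on protein-coding genes, -0.0071 without a filter and -0.017 with 10 counts in every library. Without 1 library the log2 fold change ranged from -0.94 to 1.201 for *Scarna3a*, -0.00282 to 0.45 for *Scarna6*, -0.018 to 0.45 for *Snora23*, -0.87 to 0.25 for *Snora30*, -0.064 to 0.31 for *Snora31*, -0.14 to 0.39 for *Snora73a*, -0.83 to 0.56 for *Snora74a*, -0.32 to 0.19 for *Snora81*, -0.11 to 0.51 for *Snord118*, -0.0092 to 0.36 for *Snord15a*, -0.15 to 0.39 for *Snord17*, -0.080 to 1.41 for *Snord34* and -1.07 to 0.10 for *Snord49a*. The cause was not tested. Members under 1 CPM rest on few counts, with a median SE of 0.84 against 0.36 for the others.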
